A study of Schizosaccharomyces pombe with 6 samples.

Results

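Small RNA from rpt6, a gene of the 26S proteasome that lies beside the silent mating-type region of fission yeast (Schizosaccharomyces pombe), was followed through 6 small RNA libraries. All peaks of the deposited peak list that overlap the rpt6 gene by at least 1 bp were taken, which gave 13 of 11033 peaks. They were set against the 12 other peaks in a window of 30 kb around the gene on chromosome II. Of the 13, 12 lay wholly within the gene and 1 reached 2 bp past its start, whereas the nearest peak left out lay 39 bp beyond the 3′ end. The gene had been chosen by its readout, namely lower values on several of its peaks in the library labelled dcr delta than in wild type. The values of that library are therefore given as a description, with no test.

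Each library is RNA of 18 to 28 nt cut from a gel, from cells grown in rich YES medium. At 30 °C there were 1 library of wild-type strain spb80, 2 of wild-type strain spb75 (replicates 1 and 2) and 1 of strain spb309, genotype dcr delta, a deletion of the Dicer gene. Wild-type spb75 was also sampled at 37 °C, with 1 library after 8 hours and 1 after 7 days. The labels do not say whether separate cultures were used, so a p-value here reflects only how these samples scatter, which may be technical. Reads over all peaks ran from 5790804 in spb75 replicate 2 to 15723318 in spb75 replicate 1. The rpt6 peaks together held 521.5 reads in spb80, 712 and 582.5 in the spb75 replicates, 216.5 in the library labelled dcr delta, 354 at 8 hours and 159 at 7 days. Sums that are not whole come from peaks whose deposited signal was not a whole number of reads.

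The deleted gene itself, dcr1 (chromosome III), did not read as absent. Its 5 peaks summed to 67.7 normalised reads in spb80, 45.0 and 57.4 in spb75 at 30 °C and 271.7 in the library labelled dcr delta, which was the highest of all 6 libraries. The sum is not of dcr1 alone, since all but 1 of these peaks also overlap the gene spn6. The exception, a coding peak at 1507202 to 1507310, held 115 reads in the library labelled dcr delta and 60, 46 and 42 in wild type at 30 °C. The peaks at 1506545 to 1506586 and 1506664 to 1506706, also in coding sequence of dcr1, held 21 and 20 reads in the library labelled dcr delta. In wild type at 30 °C they held 0 to 6. The extent of the deletion is not in the labels, so these peaks can lie outside it. Directions drawn from that library rest on its label.

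Rpt6 is a subunit of the ring of ATPases in the 19S regulatory particle, which unfolds tagged proteins and feeds them into the 20S core of the proteasome. The gene, also called let1 and essential for growth, sits in the interval between mat1, the expressed mating-type cassette, and the silent cassettes, which are kept in heterochromatin. In fission yeast, Dicer cuts double-stranded RNA from repeats into siRNA that helps to place heterochromatin, above all at the centromeres.

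The rpt6 gene spans chromosome II from 2121444 to 2122816 on the minus strand of assembly ASM294v3, with 1373 bp, 2 exons and 403 codons. Its 13 peaks covered 54.8% of the gene. Of these, 11 lay wholly in coding sequence, 1 at the stop codon had 1 base in the 3′ untranslated region, and 1 spanned the annotated mRNA start, with 33 bases of the 5′ untranslated region and 11 coding bases. The gene mat1-Mc lay 6.42 kb beyond the 3′ end of rpt6 and mat3-Mi 9.77 kb beyond its start. The 4 genes of mat1 and mat3 in the window, mat1-Mi, mat1-Mc, mat3-Mi and mat3-Mc, held 0 peaks. The silent cassette mat2 and the repeat beside it were not analysed here.

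Annotated antisense transcripts face rpt6 at 2 places. The lncRNA SPNCRNA.5500 (II, 2121700 to 2122168) lay opposite 5 peaks and SPNCRNA.5501 (II, 2122310 to 2122794) opposite 5 others. The peak list gives no usable strand, since every peak is entered as plus, so sense and antisense small RNA could not be told apart. Of all 20-base words in the 13 peaks, 1 had a second match in the genome, in the peak at 2121803 to 2121871.

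The coding-strand sequences of 4 peaks in the middle of the gene are shown because they had the 3 lowest ratios to 30 °C after 7 days at 37 °C (the first 3) and the lowest ratio in the library labelled dcr delta (the last). They are read from the RefSeq genome, 5′ to 3′. Capitals in the first mark the codons of the Walker B motif, residues 241 to 248, where these ATPases bind magnesium and hydrolyse ATP. The Walker A motif (residues 186 to 193) lay between peaks.
Peak at chrII:2121992-2122026, minus strand: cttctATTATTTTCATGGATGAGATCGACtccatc
Peak at chrII:2122108-2122138, minus strand: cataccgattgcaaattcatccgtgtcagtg
Peak at chrII:2122219-2122267, minus strand: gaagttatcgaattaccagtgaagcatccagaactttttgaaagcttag
Peak at chrII:2122318-2122370, minus strand: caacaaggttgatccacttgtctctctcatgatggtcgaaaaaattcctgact
The G+C content of these peaks was 37.1, 45.2, 36.7 and 41.5%, within the range of 33.3 to 48.5% over all 13.

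In wild type at 30 °C, small RNA lay at peaks from the mRNA start of rpt6 to its stop codon. Levels of single peaks are normalised reads scaled to a peak of mean width, 71.0 bp. Sums over several peaks or a gene are normalised reads without this scaling to width. The middle of the gene is used below for the 9 peaks from 2121803 to 2122573, a division made after the values were seen. These 9 peaks held 251 normalised reads in spb80, 319 in spb75 replicate 1 and 423 in replicate 2. The 2 peaks nearest the 5′ end (2122591 to 2122818) held 141, 76.5 and 123, and the 2 peaks nearest the 3′ end (2121529 to 2121680) held 43.4, 36.4 and 30.7. By peak, the wild-type mean level at 30 °C ran from 16.0 ± 3.24 (SD, n = 3) at the stop codon to 72.0 ± 40.6 at the mRNA start, so the spread between wild-type libraries was widest at the start.

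**Figure D1:**
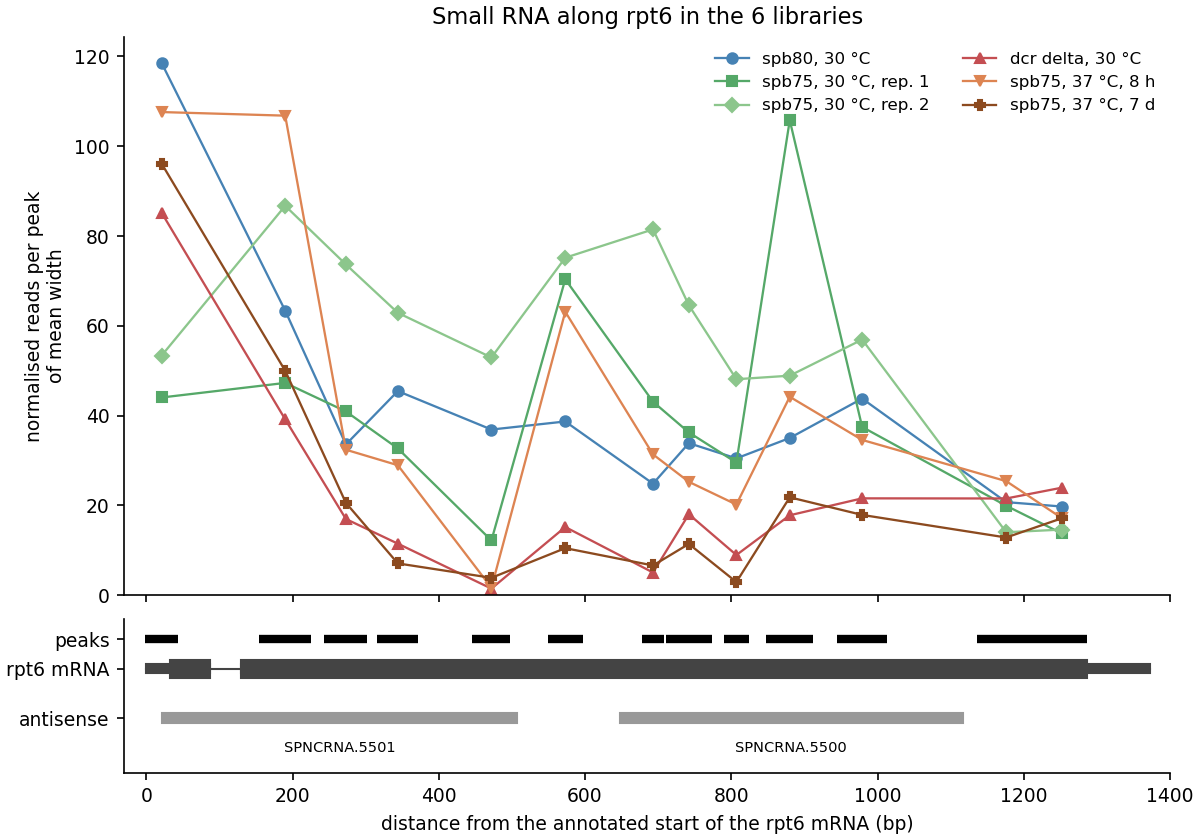
Level of each of the 13 rpt6 peaks (normalised reads per peak of mean width) against the distance of its centre from the annotated mRNA start, for the 6 libraries. The lower panel gives the peaks, the rpt6 mRNA (coding sequence thick) and the antisense lncRNAs; between about 273 and 979 bp the 7 day library and the one labelled dcr delta lie below all wild-type libraries at 30 °C.

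Per length, rpt6 held more small RNA than any other ATPase gene of the proteasome. In wild type at 30 °C its level was 351 ± 59.7 normalised reads per kb of gene (SD, n = 3). The other genes of the ring ranged from 35.4 ± 8.16 in rpt1 to 85.0 ± 9.86 in rpt5. On this scale rpt6 ranked 396th of 3519 protein-coding genes with a peak. The level is a sum over peaks only, so reads outside peaks are not in it.

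The rpt6 gene held less small RNA in total in the library labelled dcr delta. The difference lay mainly in the middle of the gene, a stretch set after the values were seen. The sum over its 13 peaks was 435.5 normalised reads in spb80, 432.5 and 575.9 in the spb75 replicates and 239.1 in the library labelled dcr delta. That value was 49.7% of the wild-type mean of 481 ± 82.0 (SD, n = 3), a log2 ratio of -0.99. It lay below all 3 wild-type libraries. In the middle 9 peaks the library labelled dcr delta held 95.5 normalised reads against 331 ± 86.4, or 28.9%. At the 5′ end it held 95.0 against 113 ± 33.3, and at the 3′ end 48.6 against 36.8 ± 6.40.

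Small RNA of heterochromatic repeats was lower by far more. In the library labelled dcr delta the centromeric lncRNA SPNCRNA.3679 kept 0.401% of its wild-type mean and the telomere-linked helicase gene tlh1 kept 0.303%, both as sums over their peaks, whose reads can match several copies. No test of this difference was made, because rpt6 was chosen from the same comparison.

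Peak by peak, 10 of the 13 rpt6 peaks had a lower level in the library labelled dcr delta than in each of the 3 wild-type libraries at 30 °C. Over the 8274 peaks above a filter on low values, 31.1% were lower in the same way, a share that says nothing of rpt6 because its peaks had been chosen from this comparison. Only 11 of the 13 passed that filter; the peaks at 2121529 and 2121601 did not. The median log2 ratio was -1.41 over all 13 rpt6 peaks and ran from -3.60 to 0.57, beside a median of -0.07 over the peaks above the filter. It was 0.09 over the 12 neighbouring peaks.

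The lowest ratio was that of the peak at 2122318 to 2122370, codons 124 to 142. It held 33 reads in spb80, 15 and 40 in the spb75 replicates and 1 in the library labelled dcr delta. The level was 20.7-fold lower, with a counting interval (Clopper-Pearson, 95%) of 3.61 to 826. The peak at 2122108 to 2122138 held 13, 31 and 36 reads in the same wild-type libraries and 2 in the library labelled dcr delta, 9.39-fold lower with an interval of 2.52 to 78.9. At the Walker B codons (2121992 to 2122026) the reads were 18, 24 and 24 against 4, a log2 ratio of -1.86. All of these values stood below the 3 wild-type values. The intervals cover counting error only, since PCR reads without molecular identifiers are not independent molecules. The gene was chosen from this comparison, and its lowest peaks were then picked from it, so these intervals are no test.

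Except for the peak at 2122591 to 2122662, the end peaks did not lie below all 3 wild-type libraries. At the mRNA start (2122773 to 2122818) the level was 118.5 in spb80, 44.0 and 53.4 in spb75 and 85.2 in the library labelled dcr delta, which lay inside the wild-type range. The next peak into the coding sequence (2122591 to 2122662) stood at 63.4, 47.3 and 86.7 against 39.2, a log2 ratio of -0.69. The 2 peaks at the 3′ end had ratios of 0.57 and 0.25, with the library labelled dcr delta above all 3 wild-type libraries in each.

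Most of the lower peaks lay opposite an antisense lncRNA, as did most rpt6 peaks. Of the 10 peaks below all wild-type libraries 9 lay opposite one, and of the 3 others 1 did. The 10 peaks opposite one had log2 ratios in the library labelled dcr delta from -3.60 to 0.38 with a median of -1.52. The 3 opposite none had a median of 0.25. Of these, 2 lay at the 3′ end and were below the filter on low values. The third, at 2122219 to 2122267 between both lncRNAs, had a ratio of -1.89. Its level was 38.7 in spb80, 70.4 and 75.2 in spb75 and 15.2 in the library labelled dcr delta. The gene was chosen from these same ratios, and a link to the antisense lncRNAs was not tested.

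The shape along the gene does not depend on how libraries are scaled to each other. The middle 9 peaks took 57.6% of the rpt6 reads of spb80 (95% Wilson interval 53.4 to 61.8%), 73.9% (70.5 to 77.0%) in spb75 replicate 1 and 73.4% (69.6 to 76.8%) in replicate 2. They took 40.0% (33.5 to 46.5%) in the library labelled dcr delta, 49.2% (44.0 to 54.3%) at 8 hours and 37.1% (30.0 to 44.8%) at 7 days. These intervals cover counting error within each library only, and the shares were not tested between libraries. The 8 hour interval overlapped those of spb80, of 7 days and of the library labelled dcr delta. The 5′ end took 32.4% in spb80, 17.7 and 21.3% in spb75 at 30 °C, 39.7% in the library labelled dcr delta, 40.4% at 8 hours and 49.1% at 7 days.

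**Figure D2:**
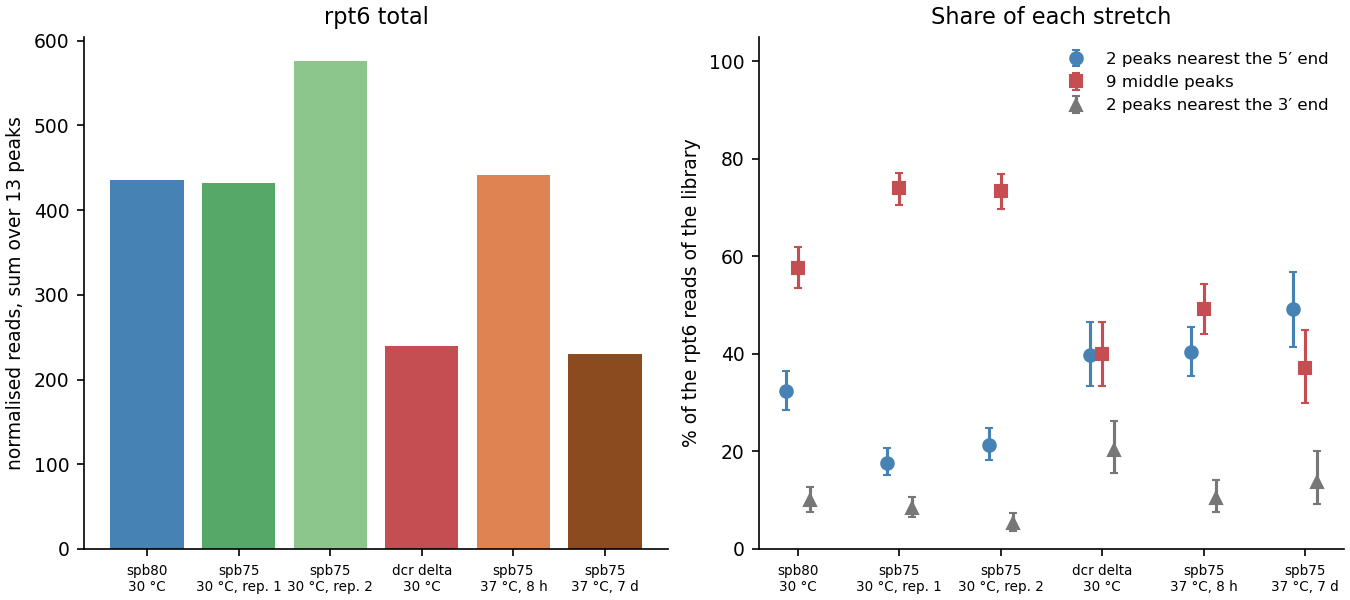
Left, normalised reads summed over the 13 rpt6 peaks in each of the 6 libraries, from 230.4 at 7 days to 575.9 in spb75 replicate 2. Right, the percentage of the rpt6 reads of each library that fell in the 5′ end, the middle and the 3′ end of the gene, with 95% Wilson intervals as bars; the middle takes 57.6% or more in wild type at 30 °C and 49.2% or less in the other libraries.

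The wild-type strains spb80 and spb75 at 30 °C were compared as values. The summed rpt6 level in spb80 was 435.5 against 432.5 and 575.9 in spb75, a log2 ratio of -0.20. spb80 lay between the spb75 libraries. The largest difference by peak was at the mRNA start, where spb80 held 118.5 and spb75 44.0 and 53.4.

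The question of how a shift to heat bears on rpt6 was addressed with limma, fitted over all peaks or genes, against the 2 spb75 libraries at 30 °C. These same libraries belong to the controls of the comparison from which rpt6 was chosen, so a high control value enters both. The lone heat library of each test is taken to be as variable as the controls, so the spread comes from the 2 spb75 libraries at 30 °C and from limma's trend over all peaks or genes.

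After 8 hours at 37 °C the total of rpt6 did not pass the test. It stood at 441.0 normalised reads against 432.5 and 575.9 at 30 °C, between the controls. The log2 ratio was -0.18 (SE 0.35, limma, Benjamini-Hochberg adjusted p = 0.811), and it was 0.03 without spb75 replicate 2. This place between the controls holds for the trimmed-mean scaling used here. As RPM, relative to the reads over all peaks, rpt6 had 27.4 at 8 hours against 45.3 and 101, below both. The ratio was -1.73 when libraries were scaled to total signal, and -1.30 when scaled to total reads. These scalings moved the median of all genes to -1.39 and -0.97. Of all 4428 genes tested 3.07% passed. Of the rpt6 peaks 0 of 11 tested passed, beside 0.701% of all peaks. At an unadjusted limma p under 0.05 there were 1 lower and 1 higher, beside 1281 of 8274 peaks in either direction.

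Within the gene the ends and the middle stood apart at 8 hours too. The middle 9 peaks held 217 normalised reads against 319 and 423, or 58.4% of the 30 °C mean of 371 ± 73.0 (SD, n = 2). The 5′ end held 178 against 76.5 and 123, or 179%. Of the 11 rpt6 peaks above the filter 9 were lower at 8 hours than in both 30 °C libraries, beside 36.8% of all peaks above it. These 9 are the middle peaks, a group set after the values were seen, so their place is no separate result.

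Values of single peaks at 8 hours spread widely. At the mRNA start the level was 107.6 against 44.0 and 53.4, a log2 ratio of 1.13 (SE 0.53, limma adjusted p = 0.322). At 2122591 to 2122662 it was 106.8 against 47.3 and 86.7. The peak at 2122318 to 2122370 held 1 read against 15 and 40, 16.6-fold lower with an interval of 2.86 to 668 (limma adjusted p = 0.262). Its log2 ratio was -3.32, and it was -4.34 without spb75 replicate 1 and -2.31 without replicate 2. The other 8 middle peaks had ratios from -0.91 to -0.20. Both 5′ peaks were thus above, and all 9 middle peaks below, the spb75 libraries at 30 °C. With libraries scaled to equal total signal, which shifts all peaks of a library alike and put the median of all peaks at 8 hours at -1.54, the 5′ peaks stood at -0.40 and -0.80.

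After 7 days at 37 °C the rpt6 total was lower than in both 30 °C libraries, short of the threshold. The sum was 230.4 normalised reads against 432.5 and 575.9, or 45.7% of the mean of 504 ± 101 (SD, n = 2). The log2 ratio was -1.11 (SE 0.36, unadjusted p = 0.00862, limma adjusted p = 0.185). Of all 4428 genes 1.54% passed. The 7 day level was also close to that of the library labelled dcr delta, 239.1, and 0.93 below the 8 hour level on the log2 scale, a difference of single libraries without a test.

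The middle of the gene held 85.5 normalised reads at 7 days against 319 and 423 at 30 °C, 23.0% of the mean. The 5′ end held 113 against 76.5 and 123, and the 3′ end 31.9 against 36.4 and 30.7. As sums both ends thus lay between the controls, but not all of their single peaks did. The mRNA start stood at 96.1 against 44.0 and 53.4, a log2 ratio of 0.97 (limma adjusted p = 0.615). The peak at 2122591 to 2122662 lay between the controls. At the 3′ end the peak at 2121529 lay above both controls and that at 2121601 below both, and neither was tested. Of the 11 rpt6 peaks above the filter 9 were lower than in both 30 °C libraries, beside 37.7% of all peaks above it. The peak at the mRNA start was higher than both, and the share of all peaks that were higher was not taken.

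Among single peaks 0 of 11 tested passed limma at 7 days, as did 0% of all 8274 peaks, so the test had called no peak anywhere. At an unadjusted p under 0.05 there were 783 of 8274 peaks in either direction, and 515 of them, 6.22% of all peaks tested, were lower. Of the rpt6 peaks there were 9 of 11, all 9 lower. These 9 are the middle peaks, a group set after the values were seen, so their place is no separate result. The lowest adjusted p was 0.0944, at 2122219 to 2122267, with 70.4 and 75.2 at 30 °C and 10.5 at 7 days (log2 ratio -2.68, SE 0.57). It was followed by the peak at 2122108 to 2122138, with 31 and 36 reads against 2, 8.70-fold lower with an interval of 2.32 to 73.3 (adjusted p = 0.0987). At the Walker B codons 24 and 24 reads stood against 1, 12.5-fold lower with an interval of 2.13 to 502 (adjusted p = 0.149).

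The largest level among the middle peaks at 30 °C came from 1 library. At 2121904 to 2121969 spb75 replicate 1 held 105.8 and replicate 2 held 48.9, with 35.0 in spb80, 17.8 in the library labelled dcr delta, 44.2 at 8 hours and 21.8 at 7 days. The values at 7 days and in the library labelled dcr delta were below all wild-type values at 30 °C here as well.

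The neighbours of rpt6 had ratios nearer to 0 at their median. The 12 other peaks of the window fell on cms1, snR92, SPBC23G7.14 and rpp202 and on lncRNAs that overlap the first 3. Around them were stretches of 10.9 kb and 11.5 kb without a peak, which hold the mat1 and mat3 genes. The median log2 ratio of the 12 was 0.06 at 8 hours and 0.06 at 7 days, against -0.63 and -1.68 for the 13 rpt6 peaks and 0.01 and -0.03 over the peaks above the filter. Of the 12, 9 passed the filter and were tested. At 8 hours 0 of 9 passed limma, beside 0.701% of all peaks. An unadjusted p under 0.05 was found for 2 of 9, higher, beside 1281 of 8274 peaks in either direction, 423 of them lower. At 7 days 0 of 9 passed, as did 0% of all peaks, and 0 had an unadjusted p under 0.05, beside 783 of 8274 peaks.

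The nearest neighbour on the 3′ side of rpt6 is snR92, a small nucleolar RNA gene on the opposite strand. Its peak (2121305 to 2121404) held 31 reads in spb80, 19 and 7 in spb75 at 30 °C, 115 in the library labelled dcr delta, 28 at 8 hours and 6 at 7 days. The level of 90.1 in the library labelled dcr delta stood above the wild-type levels of 18.4, 8.19 and 4.91. On the other side, the peak of SPBC23G7.14 nearest to rpt6 (2126615 to 2126657) stood at 72.4, 42.1 and 30.2 in wild type and 51.0 in the library labelled dcr delta.

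Farther on, rpp202, which encodes a P2 protein of the ribosomal stalk, held the highest level of the window except in the library labelled dcr delta. Its peak at 2128177 to 2128365 stood at 554 in spb80, 596 and 439 in spb75, 380 in the library labelled dcr delta, 280 at 8 hours and 331 at 7 days. In the library labelled dcr delta the peak on cms1 (2110394 to 2110437) stood higher, at 442. The rpp202 peak had a log2 ratio of -0.46 there, and the ratios of the other 11 neighbours ran from -0.56 to 3.16.

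**Figure D3:**
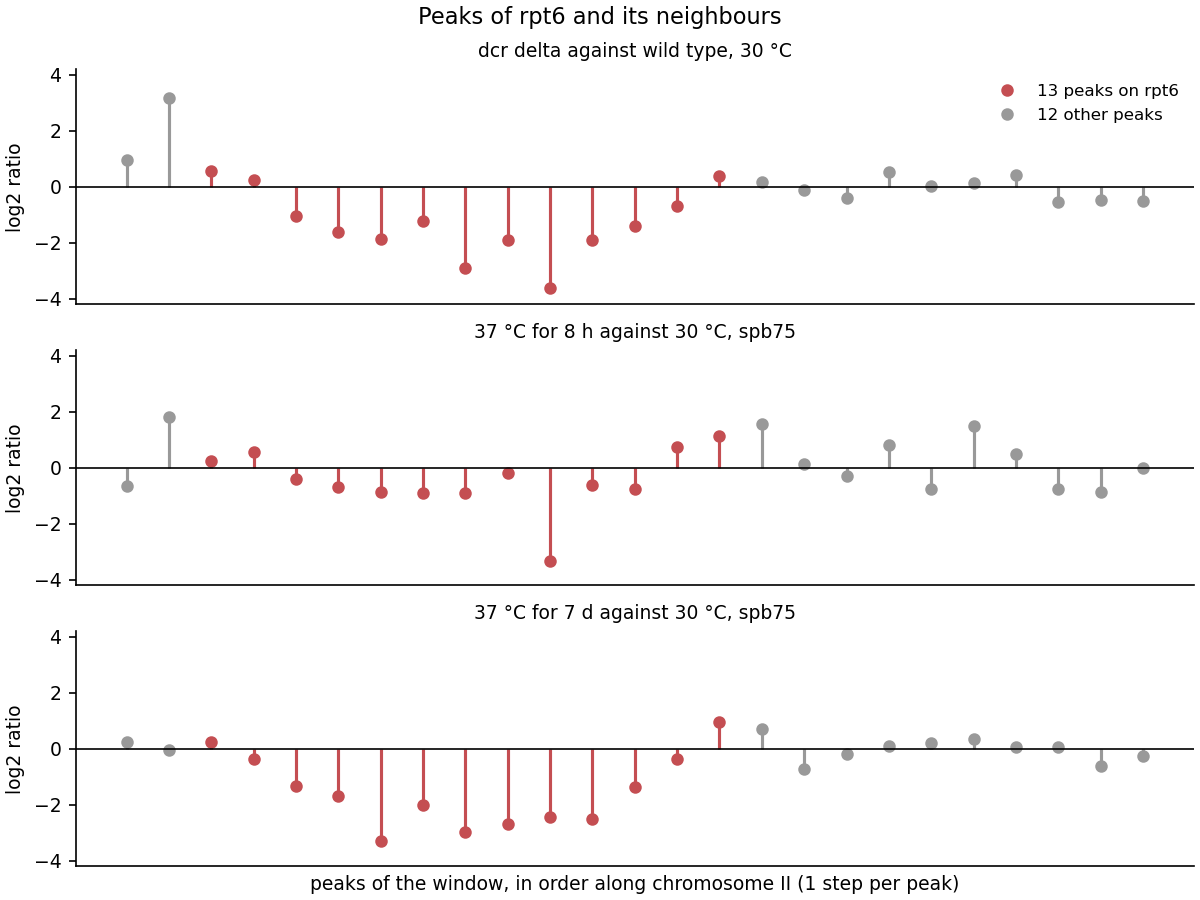
Log2 ratio of each of the 25 peaks of the window, in order along chromosome II, for the library labelled dcr delta against 3 wild-type libraries at 30 °C and for spb75 after 8 hours and 7 days at 37 °C against 2 spb75 libraries at 30 °C. The rpt6 peaks dip in the middle of the gene, to -3.60 in the library labelled dcr delta and -3.30 at 7 days, and the 12 other peaks lie at -0.87 or above in all 3 panels.

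Other proteasome genes were examined to see whether rpt6 moved with its complex. Of 34 other proteasome genes matched in the annotation 32 had a peak, and 30 passed the filter in the heat comparisons. Of these 30, limma called 0 at 8 hours and 0 at 7 days, beside 3.07% and 1.54% of all genes. At 8 hours their median log2 ratio was 0.16, equal to the 0.16 over all genes. At 7 days it was -0.36 with 25 of 30 below 0, against 0.00 over all genes. In the library labelled dcr delta the median of the 32 was 0.08 with 14 below 0, against -0.05 over all genes. The ratios there ran from -0.80 in pts1, a core subunit gene with 1 peak and 19 reads in that library, to 0.86 in pre9. At 7 days pts1 stood at -0.85.

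None of the other ATPases of the ring had a ratio as low as that of rpt6 at 7 days or in the library labelled dcr delta. At 7 days their log2 ratios were 0.17 in rpt1, -0.49 in rpt2, -0.02 in rpt3, -0.04 in rpt4 and -0.02 in rpt5, against -1.11 in rpt6. In the library labelled dcr delta they were 0.69, 0.53, -0.12, 0.35 and 0.07 in the same order, against -0.99. In that library rpt1 (99.4 normalised reads), rpt2 (124.8) and rpt4 (211.4) stood above all 3 wild-type libraries, whose highest levels were 78.5, 94.9 and 192.5. The share of all genes that stood above in this way was not taken, so nothing is read from it. The difference between rpt6 and the other ATPase genes was not tested. Since rpt6 alone was chosen for low values in the library labelled dcr delta, its lower ratio there was set by the choice.

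Among the lid and base subunits without ATPase activity, 12 of 14 lay below 0 at 7 days, with a median of -0.49. The lowest were rpn2, a scaffold subunit of the base, at -0.90 (SE 0.38), and rpn11, the deubiquitinase of the lid, at -0.86 (SE 0.41). At 8 hours rpn10, a ubiquitin receptor, stood at 1.32 and rpn7, a lid subunit, at 1.24 (limma adjusted p = 0.207 and 0.0791). Of the 20S core genes 9 of 11 lay below 0 at 7 days, and pam1, a core subunit gene with 1 peak, was lowest at -1.25 (SE 0.64). The values of rpn501 and rpn502, near-identical copies, are uncertain because reads can match both.

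After rpt6, the proteasome genes with the highest mean levels over the 6 libraries were pre5, pup3 and pre8. In pre5, an alpha subunit gene of the core, the wild-type mean at 30 °C was 369 ± 29.1 (SD, n = 3) against 418.6 in the library labelled dcr delta. In pup3, a beta subunit gene, it was 210 ± 17.6 against 254.6, and in pre8, an alpha subunit gene, 188 ± 38.7 against 286.6. The choice of these 3 rests on all 6 libraries, that one included, so nothing is read from these values.

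**Figure D4:**
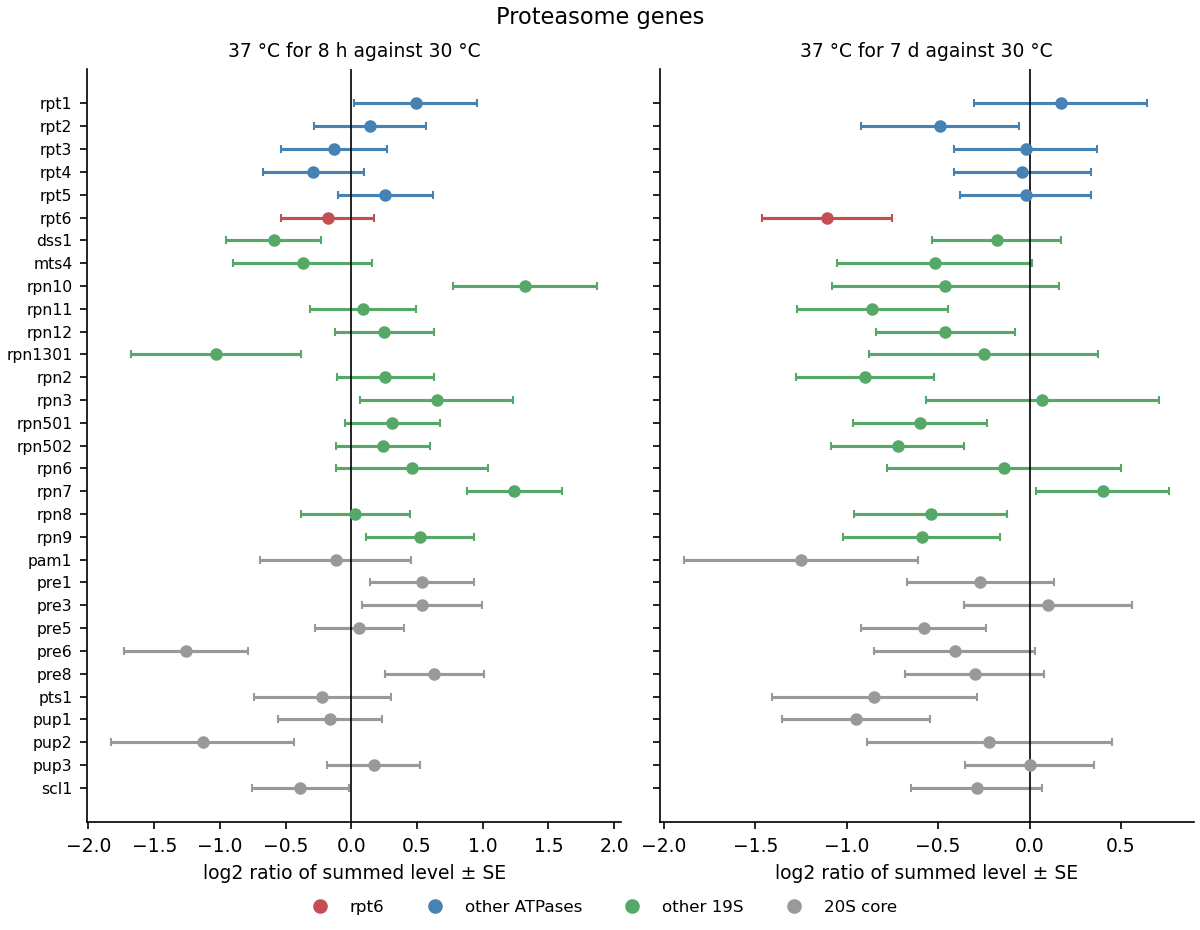
Log2 ratio of the summed level of rpt6 and the 30 other proteasome genes tested, ± SE from limma, for spb75 after 8 hours (left) and 7 days (right) at 37 °C against 30 °C. At 7 days rpt6 is at -1.11, the other ATPases lie between -0.49 and 0.17, and none of the genes passed the threshold.

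The genes most like rpt6 were sought by Pearson's r of log2 summed levels over the 6 libraries, among 4425 genes. The highest were gpp74 (r = 0.983), mam33 (0.979), SPAC323.04 (0.964), and zpr1 and SPNCRNA.3648 (0.963 each), which overlap and share their peaks. In mam33, whose product is a protein of the mitochondrial matrix, the level was 304.0 in spb80, 310.4 and 402.9 in spb75, 187.6 in the library labelled dcr delta, 268.4 at 8 hours and 168.8 at 7 days. In gpp74 it moved little, from 108.0 at 7 days to 123.6 in spb75 replicate 2. With 6 libraries and 4425 genes, high values of r are a description, and all genes share the same libraries and scaling. Of the proteasome genes pts1 (0.804), pup1 (0.731) and rpn2 (0.728) were nearest, and rpt4 was the farthest at -0.552.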

How the data were processed

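The members, gene lists and tests were chosen with earlier results of these data known. The tools were CASAVA 1.8, MACS and Bowtie 0.9.9.1, per the submitters' processing notes. Their roles and the build were not given in the sources used here. Judged from its values, the deposited signal is the reads on a peak times the mean peak width of 71.0 bp, divided by the width. The columns of spb80 and dcr delta hold 8 more than whole reads give, and this was taken off; dcr delta steps by 1.4845 per read. After this, 73.6 to 92.4% of values lay within 0.01 of a whole read, too few for a count test. Peaks were placed on ASM294v3: on chromosome II, 82 of 97 genes for tRNA, snRNA and snoRNA overlapped a peak, with the most overlap at no shift (6989 bp, against 6953 and 6959 bp at 5 bp to either side). Libraries were scaled with trimmed means (TMM, 30% and 5% trims). The lowest 25% by mean were dropped. The test was limma 3.58.1 (R 4.3.3) with values as log2(normalised signal + 1), 2-sided, with a trended prior, Benjamini-Hochberg over all peaks, or over genes after summing reads, at 0.05. Fold changes on this scale understate low peaks. It was tested on simulated data. Named genes are the rpt6 and window peaks, the other Rpt ATPases, other proteasome genes past the threshold or with the 3 highest levels, and the 5 genes most like rpt6; further proteasome genes were named after their values were seen. Python 3.11.15 was used for sums and intervals. The median peak held 19 to 47 reads. Alternatives covered scaling, pseudocount, filter, controls, the added 8 and each replicate.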

Additional observations from a re-analysis of the deposited data

Results flagged for a closer look

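In 1 rpt6 peak, at 2121601 to 2121680 near the stop codon (codons 354 to 381), both heat libraries left the range of the 2 spb75 libraries at 30 °C in opposite directions. The level was 19.9 and 14.0 normalised reads at 30 °C, 25.4 after 8 hours and 12.9 after 7 days at 37 °C. The log2 ratios were 0.57 and -0.36, a difference of 0.93. The peak was below the filter on low values, and the difference was not tested.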

How the results depend on the processing

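No paired analysis was possible because replicate numbers above 1 occur in 1 group only, spb75 at 30 °C. No rpt6 peak passed limma under any of 9 settings with a test; the adjusted p of the rpt6 sum ran from 0.208 to 0.854 at 8 hours and from 0.167 to 0.979 at 7 days. Leaving out 1 control leaves no test and gave log2 ratios of the rpt6 sum from -0.38 to 0.03 at 8 hours, from -1.32 to -0.91 at 7 days, from -1.06 to -0.86 in dcr delta and from -0.40 to 0.01 for spb80 against spb75. The mean of the peaks' log2 ratios was -1.52 at 7 days and -1.30 in dcr delta. Total-signal scaling gave -0.74 in dcr delta, and total-read scaling, chosen after seeing the data, -0.51 for spb80. The sign of single peaks turned at 8 hours at 2122219 to 2122267 with all 3 wild-type controls (0.10), at 2122591 to 2122662 with total-signal (-0.80) or total-read scaling (-0.38) and at 2122773 to 2122818 with total-signal scaling (-0.40). At 7 days it turned at 2122591 to 2122662 without spb75 replicate 2 (0.08; -0.78 without replicate 1). The cause was not tested. The other 215 values of single peaks and 52 of sums and counts were classed as unchanged. The tested values among them kept their direction and side of the threshold. Values without a test moved by less than the SD between control libraries. Among these, the sum of spb80 against spb75 turned from -0.20 to 0.01 without spb75 replicate 2. Over all features the counts moved widely: 58 peaks at 8 hours (1 with total-read scaling, 2 with all 3 wild-type controls, 7 with total signal, 21 without a filter, 27 with median-of-ratios scaling, 111 with a pseudocount of 10), 136 genes at 8 hours (1 to 292), 68 genes at 7 days (0 to 99) and 0 peaks at 7 days (1 with a pseudocount of 10). At 8 hours 50 peaks rose and 8 fell, against 0 and 7 with total signal. Depth limits the low peaks: 1 to 5 reads lay behind several 7 day values.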
